A study of Homo sapiens with 12 samples.

Results

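The genes described here encode 10 subunits of the constitutive centromere-associated network, the set of proteins that sits on centromeric chromatin throughout the cell cycle: CENPC, CENPH, CENPI, CENPK, CENPL, CENPM, CENPN, CENPT, CENPU and CENPW. They were taken by gene symbol from a written list whose rule uses no measured value, although earlier results of these data were known when it was written, and all 10 were found among the 14828 genes of the expression table. The mRNA of 22Rv1 cells, a human prostate carcinoma line, was sequenced after knockdown of CENPA, the histone H3 variant that marks the centromere, to ask how the expression profile changes when CENPA is depleted. Cells carried a lentiviral pTRIPZ Tet-On vector with a nontargeting control hairpin (shNT) or 1 of 2 hairpins against CENPA (shCENPA1 and shCENPA2), were selected in puromycin, and all groups, shNT included, received doxycycline at 2 µg/ml for 72 h. Each of the 3 shRNAs is represented by 2 libraries, 6 in all, and each library was run in lanes 7 and 8. The labels number the runs of an shRNA as replicates 1 to 4, and the libraries and lanes were read from the run names. The sources used here do not say whether the libraries of an shRNA came from separate cultures, so the p-values measure the spread between these libraries only. An shRNA-transduced population of 1 line is the model, without parental or doxycycline-free cells among the groups compared here.

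The network bridges CENPA nucleosomes and the outer kinetochore, which captures spindle microtubules. CENPC binds the CENPA nucleosome and reaches outward to the MIS12 complex, and CENPT, a histone-fold protein, offers another route by recruiting the NDC80 complex. Between these linkers lie the CENPH-I-K-M complex, the CENPL-N pair, the CENPT-W-S-X histone-fold complex and the CENPO-P-Q-R-U complex. CENPN recognizes the CENPA nucleosome directly, and CENPU is known as a docking subunit for the mitotic kinase PLK1. Several of these genes are expressed more strongly in dividing cells than in resting cells, and in bulk RNA a smaller share of cells in one phase and less RNA per cell cannot be told apart.

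Before the values, 3 promoters are shown because their genes stand at opposite ends of the changes: CENPU, which was lower with both CENPA-directed shRNAs, and the linkers CENPC and CENPT, which did not pass the test with either. Each run is the 250 bases upstream of the RefSeq start (GRCh38.p14, minus strand, written 5′ to 3′ along the gene), at chr4:184734097-184734346 for CENPU, chr4:67545504-67545753 for CENPC and chr16:67847694-67847943 for CENPT. Capitals mark matches on either strand to the CHR motif (TTTGAA), the CCAAT box (CCAAT) and an E2F motif (TTCCCGC, its variant TTCGCGC, or another pair, TTGCCGC besides TTGGCGC), elements known from promoters of cell cycle genes.
CENPU: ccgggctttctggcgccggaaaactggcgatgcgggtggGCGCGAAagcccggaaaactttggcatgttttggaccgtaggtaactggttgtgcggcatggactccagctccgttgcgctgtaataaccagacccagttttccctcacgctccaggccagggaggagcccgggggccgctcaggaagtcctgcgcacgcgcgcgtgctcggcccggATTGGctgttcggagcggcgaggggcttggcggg
CENPC: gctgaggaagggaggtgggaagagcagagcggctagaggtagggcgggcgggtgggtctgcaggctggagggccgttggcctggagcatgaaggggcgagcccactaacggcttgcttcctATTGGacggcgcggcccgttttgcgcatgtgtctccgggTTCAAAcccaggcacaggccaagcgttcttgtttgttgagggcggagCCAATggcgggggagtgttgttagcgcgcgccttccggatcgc
CENPT: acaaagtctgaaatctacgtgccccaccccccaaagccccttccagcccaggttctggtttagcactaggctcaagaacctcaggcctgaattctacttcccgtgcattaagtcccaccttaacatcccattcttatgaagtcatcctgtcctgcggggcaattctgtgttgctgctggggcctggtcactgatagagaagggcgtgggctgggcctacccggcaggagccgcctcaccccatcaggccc
The CENPU promoter held an E2F match that begins 211 bases before the start and a CCAAT box at 34 bases, and that of CENPC a CHR match at 90 bases between CCAAT boxes at 129 and 43 bases. No match overlaps another. CENPT held none of the 3 motifs. In the GENCODE annotation used for the gene positions below, CENPU and CENPT begin inside their windows, at 184734130 and 67847811. By that annotation these 2 windows are not wholly upstream of the gene. Of the 10 genes, 7 were in the promoter table, and CENPH, CENPL and CENPM were not. Over windows that also take in the 50 bases after the start, a CCAAT box was found in 5 of these 7 promoters and in 34.6% of all 35116 promoters, a CHR match in 2 of 7 (CENPC and CENPN) and 15.2%, and an E2F match in 2 of 7 (CENPU and CENPN) and 13%. CENPI, like CENPT, had no match. Matches were seen in CENPK, CENPN, CENPU and CENPW, which fell with both shRNAs, and in CENPC, which did not pass the test. None were seen in CENPT, which did not pass, or in CENPI, which fell with both shRNAs. The part of these motifs in the changes was not tested.

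Levels are given as log2 RPKM, which scales read counts to gene length and to library size, averaged over both lanes. The libraries held 79172294 to 133074655 reads on genes, and the 10 genes rest on 274 to 11012 reads per library. CENPA itself was at log2 RPKM 2.46 and 2.18 in the controls, 0.50 and 0.58 with shCENPA1 and -0.47 and -0.41 with shCENPA2, a decrease of 70.9% and 85.3% (log2 fold change -1.78, adjusted p = 0.000287, and -2.76, adjusted p = 1.13e-05, by limma with Benjamini-Hochberg adjustment). All 10 luminal prostate markers examined were in the table, with a summed RPKM of 938 to 983 with shNT, 904 to 941 with shCENPA1 and 913 to 917 with shCENPA2, although KLK3 and KLK2 were low in all groups. Of 13 markers of basal, stromal, endothelial, immune and neuroendocrine cells, 9 were not listed, and COL1A1, DCN, CHGA and SYP summed to 23.5 to 24.6, 25.7 to 29.6 and 23.9 to 25.1 RPKM, mostly from SYP. CHGA, a neuroendocrine marker, and DCN, a stromal one, were weakly expressed, at log2 RPKM -2.01 and -2.19 and at -2.90 and -3.19 with shNT. CHGA rose by log2 fold changes of 2.06 and 1.76 and DCN by 1.93 and 1.48 with shCENPA1 and shCENPA2. With each shRNA 2 of the 4 listed markers rose at an adjusted p under 0.05 by limma, beside 2.69% and 8.05% of all genes tested. The other listed marker of each kind did not pass, SYP being at 0.14 and -0.03 and COL1A1 at 0.09 and 0.12. The part of these cells in the values below was not tested.

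Depletion of CENPA was accompanied by lower mRNA of most of the network, with CENPC and CENPT as the exceptions among the 10. With each shRNA, 8 of 10 genes fell at an adjusted p under 0.05 (limma, Benjamini-Hochberg over 14624 genes), where 4.45% of all genes tested fell with shCENPA1 and 10.5% with shCENPA2. None of the 10 rose, where 2.69% and 8.05% of all genes did. With a log2 fold change beyond 1 also required, 4 of 10 were called with shCENPA1 (CENPH, CENPI, CENPK and CENPU), against 1.83% of all genes in that direction, and 6 of 10 with shCENPA2, where CENPM and CENPW joined them, against 4.45%. The median log2 fold change of the 10 was -0.97 with shCENPA1 and -1.55 with shCENPA2, beside 0.00 and 0.01 over all genes tested. Both shCENPA1 libraries lay below both shNT libraries for 9 of 10 genes (27.1% of all genes), and both shCENPA2 libraries for 8 of 10 (31%). The 2 comparisons use the same shNT libraries and are not independent. The smallest two-sided p of an exact permutation test is 0.33 with 2 libraries against 2, and limma's calls therefore depend on a spread estimated over many genes.

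**Figure D1:**
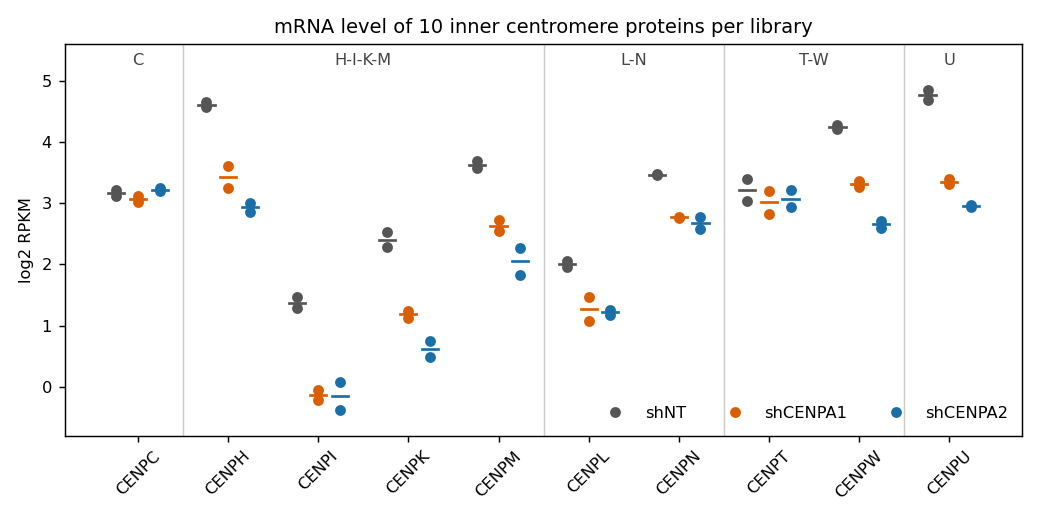
Level of each of the 10 genes in log2 RPKM (vertical axis), grouped by subcomplex, with 1 point per library (mean of 2 lanes) and a bar at the group mean for shNT (grey), shCENPA1 (orange) and shCENPA2 (blue). For CENPC and CENPT the 6 points lie between 3.02 and 3.25 and between 2.83 and 3.39, whereas the grey points of the other 8 genes lie above all their colored points.

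CENPC, the linker that holds CENPA nucleosomes, did not pass the test with either shRNA. Its log2 RPKM was 3.12 and 3.21 with shNT, 3.11 and 3.02 with shCENPA1 and 3.19 and 3.25 with shCENPA2. The shCENPA1 libraries lay just below the shNT libraries and the shCENPA2 libraries overlapped them. The log2 fold change was -0.10 with shCENPA1 (95% interval -0.32 to 0.12, adjusted p = 0.6 by limma) and 0.05 with shCENPA2 (-0.17 to 0.28, adjusted p = 0.747). A decrease to 50% would be -1 on this scale, outside both intervals. CENPC (chromosome 4, 67468762 to 67545503, minus strand of GRCh38) has one of the deepest records of the 10 genes, from 5979 to 11012 reads per library.

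CENPT, the histone-fold linker to NDC80, lay at 3.03 and 3.39 with shNT, 2.83 and 3.20 with shCENPA1 and 3.21 and 2.94 with shCENPA2. The 3 groups overlapped, and libraries of one shRNA stood farther apart (0.27 to 0.37) than the group means did. Its log2 fold change was -0.19 with shCENPA1 (95% interval -0.56 to 0.18, adjusted p = 0.543 by limma) and -0.13 with shCENPA2 (-0.50 to 0.24, adjusted p = 0.632). The sign of the latter turned to 0.05 without library 2 of shNT and to 0.01 without library 2 of shCENPA2. CENPT (chromosome 16, 67828157 to 67847811, minus strand) shares 10.5% of its exon bases with TSNAXIP1, 6.71% with THAP11 and 2.93% with NUTF2, all on the opposite strand. The libraries were made strand-specific, but the strand setting of the read counting is not given in the sources used here, so reads of these genes may be included in the CENPT value, and their part was not tested.

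All 4 genes of the CENPH-I-K-M complex, the core that ties CENPC to the remaining subunits, fell with both shRNAs. CENPH (chromosome 5, 69189574 to 69210357) was among the most abundant of the 10 transcripts, at log2 RPKM 4.57 and 4.65 with shNT. It stood at 3.24 and 3.61 with shCENPA1 and at 2.85 and 3.01 with shCENPA2, so the 3 groups did not overlap. Its log2 fold change was -1.19 ± 0.13 (SE, adjusted p = 0.000696 by limma) and -1.68 ± 0.13 (adjusted p = 4e-05), or 44% and 31.2% of the shNT level.

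CENPK, a partner of CENPH in this complex, lies on the same chromosome (65517766 to 65563168). It measured 2.28 and 2.53 with shNT, 1.24 and 1.13 with shCENPA1 and 0.74 and 0.49 with shCENPA2. Its groups were again separate, and the decrease was -1.22 (adjusted p = 0.00147 by limma) and -1.79 (adjusted p = 6.88e-05), which left 42.9% and 28.9%. CENPM, a subunit with a small GTPase-like fold (chromosome 22, 41938737 to 41947152), went from 3.68 and 3.58 to 2.54 and 2.72 with shCENPA1 and to 2.27 and 1.83 with shCENPA2. With shCENPA1 its change sat at the edge of the fold threshold, -1.00 (adjusted p = 0.00378 by limma), and just short of it, so CENPM is not counted among the 4 called there. Without library 1 of shCENPA1, which left 1 library in that group, the change was -0.91 and the test was no longer passed. With shCENPA2 the change was -1.58 (adjusted p = 0.000126 by limma).

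CENPI (chromosome X, 101098188 to 101166126) had the lowest level of the 10 in every library. It was at 1.29 and 1.46 with shNT, at -0.05 and -0.21 with shCENPA1 and at -0.38 and 0.08 with shCENPA2. Both knockdown groups lay far below shNT and overlapped each other. The log2 fold change was -1.51 (95% interval -1.96 to -1.06, adjusted p = 0.00191 by limma) and -1.53 (-1.98 to -1.08, adjusted p = 0.000798). These values rest on 1144 and 1003 reads with shNT and 274 to 612 with the CENPA-directed shRNAs. Because CENPI is low, adding 1 to the RPKM before the logarithm reduced both changes to -0.91.

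The CENPL-N pair fell less, to about 60% of shNT. CENPN, the subunit that reads the CENPA nucleosome (chromosome 16, 81006552 to 81033114), was at 3.46 and 3.47 with shNT, 2.77 and 2.76 with shCENPA1 and 2.58 and 2.77 with shCENPA2. Its shNT libraries lay above all 4 knockdown libraries. The log2 fold change was -0.70 (adjusted p = 0.00376 by limma) and -0.79 (adjusted p = 0.000891), leaving 61.6% and 57.9%. CENPN shares 12.6% of its exon bases with a noncoding gene on the same strand, which is not in the expression table. It shares at most 4.6% with any other gene, all on the opposite strand. The part of reads of these genes in the CENPN value was not tested.

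CENPL, its partner (chromosome 1, 173799550 to 173824883, minus strand), was at 2.06 and 1.95, 1.46 and 1.07, and 1.25 and 1.18 in the same order. All knockdown libraries were below both shNT libraries, but the shCENPA1 libraries were 0.40 apart. The change was -0.74 with shCENPA1 (adjusted p = 0.0233 by limma) and -0.79 with shCENPA2 (adjusted p = 0.00823). Its call depended on single libraries, with log2 fold changes of -0.54 to -0.93 with shCENPA1 and -0.73 to -0.84 with shCENPA2 when each was left out. With shCENPA1 the test was not passed without library 1 of shNT (log2 fold change -0.68, adjusted p = 0.147 by limma), without library 2 of shNT (-0.79, adjusted p = 0.0913) or without library 2 of shCENPA1 (-0.54, adjusted p = 0.135). With shCENPA2 it was not passed without library 1 of shNT (-0.73, adjusted p = 0.0607 by limma).

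CENPW, the small histone-fold partner of CENPT (chromosome 6, 126340115 to 126348875), was one of the more abundant transcripts, at 4.28 and 4.21 with shNT. It was at 3.26 and 3.36 with shCENPA1 and 2.71 and 2.60 with shCENPA2, with narrow groups that did not overlap. It changed by -0.93 ± 0.10 (SE, adjusted p = 0.000565 by limma) and -1.59 ± 0.10 (adjusted p = 1.44e-05), or 52.3% and 33.2% of shNT. CENPW and CENPT form a dimer in the cell, so their mRNA levels were set side by side in each library, a pairing chosen after the values were seen and given without a test. In RPKM, CENPW exceeded CENPT by 2.38 and 1.77 times with shNT and by 1.35 and 1.12 times with shCENPA1, whereas with shCENPA2 it was at 0.706 and 0.788 of CENPT. The size of these ratios depends on the gene lengths used in the RPKM, 795 bases for CENPW and 7823 for CENPT. Only their change between groups is free of length.

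CENPU (chromosome 4, 184694085 to 184734130, minus strand) had the highest level of the 10 with shNT, at 4.69 and 4.84. It was at 3.31 and 3.39 with shCENPA1 and 2.97 and 2.94 with shCENPA2, and again the groups did not overlap. Its change of -1.42 (95% interval -1.63 to -1.20) with shCENPA1 and -1.81 (-2.02 to -1.60) with shCENPA2 had the smallest adjusted p of the 10 in both comparisons, at 9.21e-05 and 6.3e-06 by limma. CENPU shares 14.9% of its exon bases with PRIMPOL on the opposite strand, which itself was at -0.39 with each shRNA (adjusted p = 0.0919 and 0.0525 by limma). The part of PRIMPOL reads in the CENPU value was not tested.

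**Figure D2:**
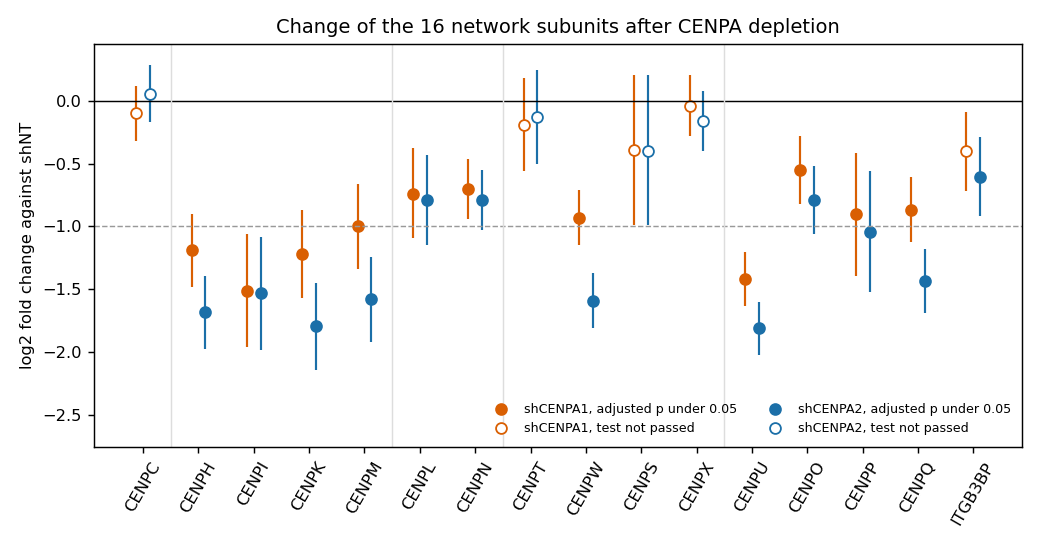
Change in log2 RPKM against shNT (vertical axis) for the 16 subunits of the network, ordered by subcomplex, with shCENPA1 in orange and shCENPA2 in blue. Bars are 95% intervals by limma, filled points passed an adjusted p of 0.05, open points did not, the dashed line marks -1, and CENPC, CENPT, CENPS and CENPX are open with both shRNAs.

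The other 6 subunits of the network were measured as well. With shCENPA1, 3 of 6 fell and with shCENPA2 4 of 6, where 4.45% and 10.5% of all genes tested did. The median log2 fold changes of the 6 were -0.47 and -0.70. In the complex of CENPU, CENPQ was at -0.87 (adjusted p = 0.00178 by limma) and -1.43 (adjusted p = 4.47e-05), the dimer partners CENPO and CENPP were at -0.55 and -0.90 with shCENPA1 and at -0.79 and -1.04 with shCENPA2 (adjusted p from 0.00181 to 0.0348 by limma), and ITGB3BP, also named CENPR, was at -0.40 (adjusted p = 0.127) and -0.61 (adjusted p = 0.0154). CENPP and CENPO share 39.9% and 27% of their exon bases with IPPK and ADCY3 on the opposite strand. The histone-fold subunits CENPS and CENPX, which also serve in the Fanconi anemia DNA repair pathway, did not pass the test: CENPX was at -0.04 (95% interval -0.28 to 0.20) and -0.16 (-0.40 to 0.08), and CENPS, with 102 to 273 reads per library and 65% of its exon bases shared with the readthrough gene CENPS-CORT, was at -0.39 (-0.99 to 0.20) and -0.40 (-0.99 to 0.20).

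**Figure D3:**
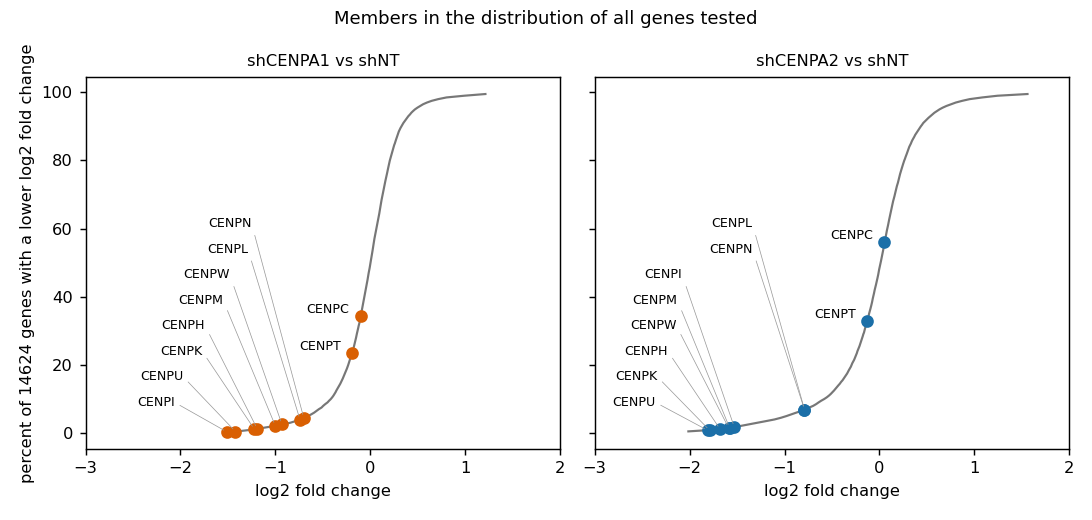
Share of the 14624 genes tested that had a lower log2 fold change (vertical axis, percent) against the log2 fold change over shNT (horizontal axis), for shCENPA1 (left) and shCENPA2 (right). The grey line is the distribution of all genes and each point is 1 of the 10 genes, of which 8 sit at or below 4.45% (left) and 6.92% (right), while CENPT and CENPC sit at 23.4% and 34.3% (left) and 32.9% and 56% (right).

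With lower mRNA of 8 genes, the order of the levels was another one after knockdown. On the per-length scale of RPKM, the shNT libraries ranked CENPU, CENPH, CENPW, CENPM, CENPN, CENPT, CENPC, CENPK, CENPL and CENPI from high to low, and only CENPT and CENPC among neighbors overlapped in their libraries. With shCENPA1, CENPH, CENPU and CENPW led and the ranges of CENPH and CENPU, and of CENPU and CENPW, overlapped. With shCENPA2 the order began with CENPC, CENPT, CENPU and CENPH, each overlapping the next, and CENPL, CENPK and CENPI remained at the low end.

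In summed RPKM, the 10 genes gave 121 and 127 with shNT, 63.5 and 68.7 with shCENPA1 and 55.7 and 54.1 with shCENPA2. CENPC and CENPT supplied 13.9% and 15.5% of this sum with shNT, 24.8% and 25.2% with shCENPA1 and 33.1% and 31.8% with shCENPA2. The share was lowest with shNT and highest with shCENPA2 without overlap between groups, while the sum of CENPC and CENPT stayed between 15.8 and 19.7 RPKM. These shares restate the levels above, depend on the gene lengths used in the RPKM and carry no test.

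**Figure D4:**
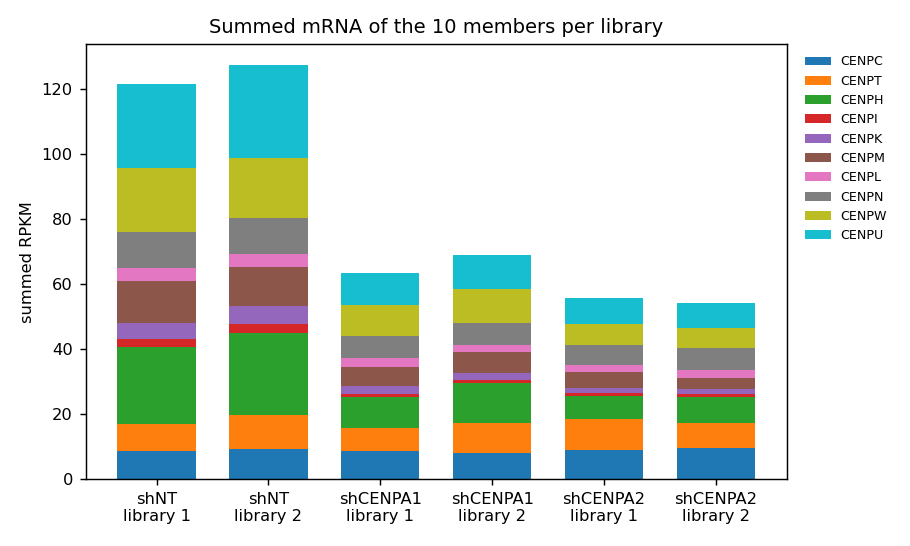
Summed RPKM of the 10 genes (vertical axis, from 0) in each of the 6 libraries, with 1 color per gene and CENPC and CENPT at the base. The total is 121 and 127 with shNT and between 54.1 and 68.7 in the knockdown libraries, and the combined height of the lowest 2 segments lies between 15.8 and 19.7 in all 6.

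The levels of pairs of genes were also set side by side in each library. CENPH over CENPK, within 1 complex, gave log2 ratios of 2.29 and 2.12 with shNT, 2.00 and 2.47 with shCENPA1 and 2.11 and 2.52 with shCENPA2, so the groups overlapped. CENPL over CENPN was at -1.41 and -1.52, -1.30 and -1.69, and -1.33 and -1.60, with overlap as well. Not every pair within a complex overlapped. CENPU over CENPQ was at 1.36 and 1.38 with shNT, above 0.83 and 0.80 with shCENPA1 and 0.94 and 1.04 with shCENPA2. CENPI over CENPM was at -2.39 and -2.12 with shNT, above -2.59 and -2.93 with shCENPA1, while -2.65 and -1.75 with shCENPA2 overlapped it. CENPU over CENPC, from different complexes, went from 1.57 and 1.63 with shNT to 0.20 and 0.36 with shCENPA1 and to -0.22 and -0.31 with shCENPA2. These pairs were chosen after their values were seen.

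**Figure D5:**
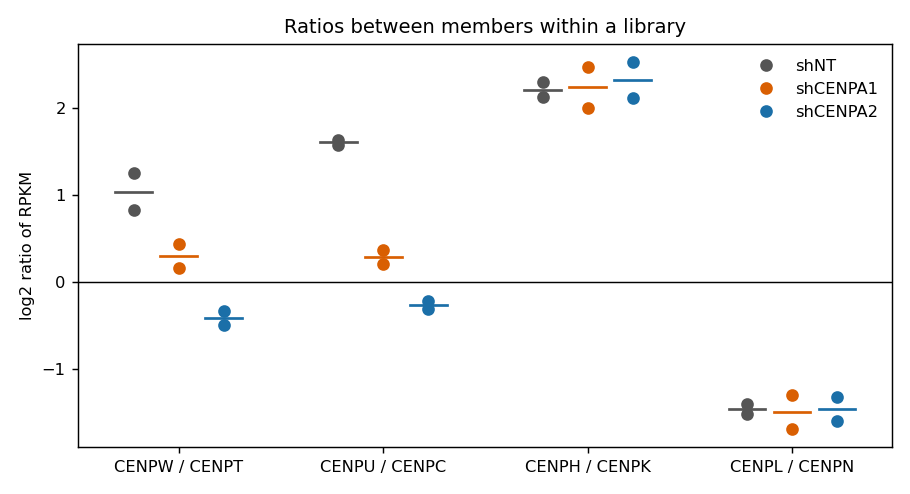
Log2 ratio of the RPKM of 2 genes within a library (vertical axis) for 4 pairs, with 1 point per library and a bar at the group mean. CENPW/CENPT and CENPU/CENPC are highest with shNT (grey), lower with shCENPA1 (orange) and lowest with shCENPA2 (blue), with means of 1.04, 0.30 and -0.42 and of 1.60, 0.28 and -0.27, while the 3 groups overlap for CENPH/CENPK and CENPL/CENPN.

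The shRNAs were also compared with each other, since shCENPA2 left less CENPA than shCENPA1 (log2 difference -0.98, adjusted p = 0.0209 by limma). Of the 10 genes, 1 was lower with shCENPA2 at an adjusted p under 0.05, where 1.03% of all genes were, and 0 were called lower with the fold threshold (0.554% of all genes). At an unadjusted p under 0.05, limma had 5 of the 10 and 13.3% of all genes, and limma's voom on recovered reads passed 0 at the adjusted level. The gene that passed was CENPW, with a log2 difference of -0.66 (95% interval -0.88 to -0.44, adjusted p = 0.0131). The call, more than the size, depended on the libraries and the fit: CENPW did not pass without library 1 of shCENPA1 (-0.70, adjusted p = 0.0653 by limma), without library 2 of shCENPA1 (-0.61, adjusted p = 0.153) or without library 2 of shCENPA2 (-0.60, adjusted p = 0.0589), nor with voom (-0.67, adjusted p = 0.0581) or without limma's variance trend (-0.66, adjusted p = 0.0616). For 5 of 10 genes (CENPH, CENPK, CENPM, CENPU and CENPW) both shCENPA2 libraries lay below both shCENPA1 libraries, beside 20.2% of all genes. Of these, CENPH, CENPK, CENPM and CENPU were at -0.49, -0.57, -0.58 and -0.39 (adjusted p from 0.0964 to 0.132 by limma). For CENPI, CENPL and CENPN the shRNAs overlapped, with differences of -0.02 (95% interval -0.47 to 0.43), -0.05 (-0.41 to 0.31) and -0.09 (-0.33 to 0.15). CENPC and CENPT went the other way without passing. CENPC was at 0.15 (-0.07 to 0.38, adjusted p = 0.554 by limma), with both shCENPA2 libraries above both shCENPA1 libraries. CENPT was at 0.06 (-0.31 to 0.43, adjusted p = 0.917 by limma), with overlap.

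The proteins on either side of the network were read the same way, beside the 4.45% (shCENPA1) and 10.5% (shCENPA2) of all genes tested that fell. HJURP, the chaperone that deposits CENPA, had log2 fold changes of -1.38 and -1.71 (limma, adjusted p = 0.000266 and 2.87e-05), and of the 6 genes for CENPA, its loading and CENPB, 5 fell with each shRNA, CENPB being at 0.13 and -0.00. Of 10 outer kinetochore genes (the KNL1, MIS12 and NDC80 complexes), 7 fell with each shRNA, with medians of -1.00 and -1.25, from KNL1 at -1.40 and NUF2 at -2.07 as the lowest to PMF1 at 0.08 and -0.01 as the highest.

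Genes of the cell cycle moved with the 8 that fell, again beside 4.45% (shCENPA1) and 10.5% (shCENPA2) of all genes tested. Of 20 G1/S genes, 18 fell with shCENPA1 and 19 with shCENPA2 (medians -0.99 and -1.27), with RRM2 lowest and CCNE1 highest in both, and their summed RPKM was 582 to 584 with shNT, 325 to 351 with shCENPA1 and 275 to 282 with shCENPA2. Of 20 G2/M genes, 20 fell with each shRNA (medians -1.23 and -1.63), from MKI67 at -1.40 and NUSAP1 at -1.76 to AURKA at -0.89 and -1.02, and the sum was 657 to 673, 282 to 295 and 209 to 223. The medians of the 10 network genes, -0.97 and -1.55, lie beside these. Their part in the decrease of the network genes was not tested.

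Among all genes tested, the 5 whose profile over the 6 libraries came closest to the mean profile of the 10 network genes were RFC3, a clamp loader subunit, the kinesin KIF18A, the replicative helicase subunits MCM6 and MCM3, and GINS3, which works with that helicase. Profiles were log2 RPKM relative to the shNT mean, and the mean of the 10 was -0.91 and -0.88 with shCENPA1 and -1.15 and -1.18 with shCENPA2. The root mean square distance to it was 0.045 for RFC3, 0.049 for KIF18A, 0.054 for MCM6, 0.065 for GINS3 and 0.072 for MCM3. The 10 genes themselves stood farther from their own mean, from 0.254 for CENPW and CENPN to 0.479 for CENPU, 0.737 for CENPT and 0.842 for CENPC. This mean combines falling genes with CENPC and CENPT, which did not pass. With shCENPA2 it lay between the log2 fold changes of CENPN (-0.79) and CENPI (-1.53), where none of the 10 was found. The distances of the 10 therefore follow in part from the averaging. For each of the 10, 292 or more genes outside these 10 were nearer to the mean, which does not show that the network resembles those genes. The likeness is a description without a test.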

How the data were processed

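Total RNA from 22Rv1 cells was made into strand-specific, paired-end mRNA libraries by the authors. Per the labels and the methods, the authors used Trim Galore for trimming, STAR for alignment to hg38, HTSeq for counting and edgeR for testing, with versions and the strand setting of counting not given in the sources used here. The deposited values are log2 RPKM of 14828 genes in 12 runs, with a prior count of 0.25 reads at the mean library size, and 0 columns of per-run values were left unused.

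Because the unit is log2, limma 3.58.1 in R 4.3.3 (lmFit, eBayes with trend) replaced the count test. Both lanes of a library were averaged, since the chi-square per gene was 1.23 to 1.31 between lanes and 26.5 to 80.1 between libraries of an shRNA. The 14624 genes whose mean log2 RPKM reached -3 were fitted with all 6 libraries and no covariate, and p-values were adjusted over these genes (Benjamini-Hochberg). A gene passed at an adjusted p under 0.05 and was called if its log2 fold change also went beyond 1. Whole reads were recovered for 14828 of 14828 genes (largest distance from a whole read 4.5e-08, tolerance 1e-05) with Python 3.11.15 and numpy 2.4.6, and served for depth and for limma's voom as an alternative. The fit was tested on simulated data with log2 changes of 1.5 and 2 in 100 genes each and independent noise per library. It called 87 and 91 of 100 with shCENPA1, with 1 false call, and 83 and 92 of 100 with shCENPA2, with 5. Smaller changes were not simulated.

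The 10 genes and the other lists were chosen with earlier results of these data known. Named besides the 10 are the other 6 subunits, CENPA, HJURP, the highest and lowest gene of each list, and the 5 genes with the nearest profile, and the gene pairs for ratios, the printed promoters, CENPB, CHGA, DCN and the overlapping genes were chosen after their values were seen. Gene positions and exon overlaps are from GENCODE 44 on GRCh38, and promoters from RefSeq. The gene lengths in the deposited RPKM differ from these exon models, so the shares of exon bases do not describe the exact regions counted. The other alternatives were lanes as replicates or singly, other filters, constants of 0.1 and 1 added to RPKM, median-centred or quantile-normalized libraries, no trend, the 2 groups alone, a replicate block and each library left out. Intervals are from limma. The number of libraries, more than the reads, limits the precision.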

Additional observations from a re-analysis of the deposited data

Results flagged for a closer look

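CENPW was the only one of the 10 genes for which the effects of both CENPA-directed shRNAs differed by a test of the difference itself. Its level with shCENPA2 minus that with shCENPA1 was -0.66 on the log2 scale (adjusted p = 0.0131 from limma, over alternatives up to 0.153), lower in 2 of 2 shCENPA2 libraries than in both shCENPA1 libraries. CENPA differed between the shRNAs in the same direction, by -0.98 (adjusted p = 0.0209 from limma). No group had the 4 samples needed to look for a library far from the others.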

How the results depend on the processing

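The 8 of 10 genes that fell with each shRNA numbered 7 or 8 under every alternative, and the count with a fold beyond 1 was 2 to 5 with shCENPA1 and 5 or 6 with shCENPA2, with 2 for shCENPA1 only when 1 was added to the RPKM. That constant also moved the median log2 fold change to -0.88 with shCENPA1 and -1.12 with shCENPA2, and a constant of 0.1 moved the latter to -1.49. Leaving out each library in turn gave medians of -1.03 to -0.92 with shCENPA1, -1.55 to -1.45 with shCENPA2 and -0.30 to -0.24 between the shRNAs. The number of genes that passed between the shRNAs, 1, was the most dependent on the processing: 0 without the trend and with voom on recovered reads, 6 with lanes as 4 replicates, and 0 to 2 with each library left out (2 without library 1 of shCENPA2, where CENPM joined CENPW). Libraries were numbered 1 and 2 here by run name. Deviations of same-numbered libraries were weakly correlated between shRNAs (-0.15 to -0.06), which cannot settle whether the cultures were paired. A replicate block on these library numbers gave 8, 8 and 1 genes in the 3 comparisons. With the numbers of shCENPA2 crossed, an alternative chosen after seeing the data, the block gave 2 between the shRNAs. The cause of these shifts was not tested. Signs turned only for differences that had not passed. Between the shRNAs, CENPI was at 0.01 with lane 7 only, at 0.03 with voom and from -0.25 to 0.21 with each library left out, CENPL from -0.25 to 0.15, CENPN from -0.18 to 0.01 and CENPT from -0.12 to 0.24. With shCENPA2 against shNT, CENPT ran from -0.31 to 0.05. CENPL with shCENPA1 also did not pass with lane 7 only (adjusted p = 0.0569 from limma). A lone library of a group was assumed to vary like the other groups.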
